A study of Mus musculus with 6 samples.

Results

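Fibronectin, periostin and the CCN, SPARC, osteopontin and thrombospondin proteins are matricellular or adhesive glycoproteins of the extracellular matrix. Of the 9 genes listed, Fn1, Postn, Ccn1, Ccn2, Ccn3, Ccn5, Sparc and Thbs2 were measured, by 12 of the 45037 probe sets tested, while Spp1 was not analysed here. The members were taken by gene symbol, using every probe set that names a member alone. The list was drawn up with the differences between the groups on these arrays already in view, so that the members' own differences are described below and support nothing.

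Gastrocnemius RNA was measured on 6 Affymetrix mouse arrays, with 3 arrays for each of the MA and control groups. All mice were male ICR mice (Slc: ICR), bought at 7 weeks of age, whose sciatic nerves were cut in both legs with removal of a 5 mm piece. The MA group ate a diet with 0.27% maslinic acid (MA), a triterpene of olive peel, from a week before the surgery, and the control group ate the same AIN-93G diet without it. Muscles of both groups were taken 14 days after denervation, and no innervated muscle was analysed here, so that the values compare 2 diets in denervated muscle and not denervated with intact muscle. The sources do not say whether each array came from a different mouse, and the spread between arrays may be technical.

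Matricellular proteins sit in the matrix without bearing load themselves and bind integrins, proteoglycans, growth factors and collagen. Fibronectin is assembled by cells into fibrils on which collagen is laid down. Periostin, CCN1 and CCN2, the former connective tissue growth factor, are secreted by fibroblasts when a tissue is loaded, injured or exposed to TGF-β. In muscle, matricellular proteins are known from regeneration, fibrosis and the myotendinous junction.

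The promoters below are shown because Postn, Ccn1 and Sparc were higher and Thbs2 was lower in the MA group, and because these were the members with a sequence in the RefSeq table (build GRCm38.p6). That table matched 4 of the 8 measured members with 5 windows, of which Postn has 2, each running from 250 bases before to 50 bases after a transcription start. Fn1, Ccn2, Ccn3 and Ccn5 have no entry. Sequences are given 5′ to 3′ on the strand of the gene, with motif matches on either strand in capitals.
Postn, second window, chr3:54360857-54361156, plus strand: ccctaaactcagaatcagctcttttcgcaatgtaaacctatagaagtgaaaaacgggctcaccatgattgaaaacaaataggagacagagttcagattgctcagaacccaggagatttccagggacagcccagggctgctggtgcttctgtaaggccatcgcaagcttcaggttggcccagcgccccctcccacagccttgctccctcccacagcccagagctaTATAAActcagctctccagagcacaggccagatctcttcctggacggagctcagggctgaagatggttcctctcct
Ccn1, chr3:145649936-145650235, minus strand: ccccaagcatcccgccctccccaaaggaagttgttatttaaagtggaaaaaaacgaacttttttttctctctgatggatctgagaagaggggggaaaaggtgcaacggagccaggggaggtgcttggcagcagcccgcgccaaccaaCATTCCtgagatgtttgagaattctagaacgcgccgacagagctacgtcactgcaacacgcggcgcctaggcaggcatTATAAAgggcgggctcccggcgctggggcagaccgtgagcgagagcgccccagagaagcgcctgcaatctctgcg
Sparc, chr11:55420031-55420330, minus strand: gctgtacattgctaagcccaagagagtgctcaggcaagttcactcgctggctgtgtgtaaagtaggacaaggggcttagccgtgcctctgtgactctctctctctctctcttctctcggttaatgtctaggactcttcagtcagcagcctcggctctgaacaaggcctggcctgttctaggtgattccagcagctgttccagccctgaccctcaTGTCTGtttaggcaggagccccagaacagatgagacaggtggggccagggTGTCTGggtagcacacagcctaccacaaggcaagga
Thbs2, chr17:14694213-14694512, minus strand: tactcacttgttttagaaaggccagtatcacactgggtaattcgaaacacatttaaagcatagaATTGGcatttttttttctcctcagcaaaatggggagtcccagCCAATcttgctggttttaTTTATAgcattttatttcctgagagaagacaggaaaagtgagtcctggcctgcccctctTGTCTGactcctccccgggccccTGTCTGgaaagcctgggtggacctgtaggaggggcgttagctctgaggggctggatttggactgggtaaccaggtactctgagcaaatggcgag

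Both strands were searched for the TATA box as TATAAA, for the CCAAT box, for TEAD factors as GGAATG, for SMAD factors as CAGACA, for AP-1 as TGAGTCA, which on the opposite strand is read as TGACTCA, for STAT factors as TTCNNNGAA and for the CArG box of SRF. No match overlapped another in these windows. A TATAAA stood from base -26 to -21 in the printed Postn window and from -25 to -20 in that of Ccn1, while 13.6% of all 32851 windows held one. The window of Ccn1 also held the TEAD letters, on the strand opposite to the gene's, from -103 to -98, which 14.7% of all windows did. Sparc held the SMAD letters in 2 places and Thbs2 also in 2, a motif of 21% of all windows. Thbs2 further held a TATAAA on that opposite strand and, in 2 places, CCAAT, which 37.4% of all windows held. The other Postn window held CCAAT alone, from base 25 to 29. No AP-1, STAT or SRF letters were found in these 5 windows, with shares of 5.2%, 8.3% and 1.63% over all windows. The matches describe letters and not bound sites.

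Values are log2 values after RMA, which the authors ran to correct the background, equalize the arrays and give 1 value per probe set. A gene is represented by its brightest probe set, and its difference is the MA mean minus the control mean on the log2 scale with the standard error (SE) of limma. Genes are said to have risen or fallen where the adjusted p of limma was under 0.05 over all probe sets. By that rule, 6 of the 8 measured members had risen with MA and 2 had fallen, against 24.7% of all 17097 genes called higher and 23% called lower. With the thresholds of the methods, which ask for an unadjusted p under 0.05 with a change beyond 1.2-fold, 5 members were higher and 2 were lower, against 5.92% and 6.87% of all genes, and Ccn3 passed in neither direction. At none of the 8 did an MA array reach into the range of the control arrays, with 6 above and 2 below it, where 30.8% and 27.8% of all genes lay wholly above or below. Since the genes were picked from this contrast, nothing is read from these counts. The median difference was 0.53 over the 8 members and 0.01 over all genes. Array medians were all 4.27. The 3′ minus 5′ difference of control probe sets, a sign of RNA integrity, ran from -0.10 to -0.08 with MA and from -0.04 to -0.01 without for Gapdh, and from 0.84 to 0.88 and from 0.92 to 0.94 for β-actin. For 18S rRNA it went the other way, from -0.96 to -0.94 with MA and from -1.17 to -1.14 without, and its part in the members' differences was not tested. Because whole muscle was measured, fewer cells of a type and less RNA per cell cannot be told apart.

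**Figure D1:**
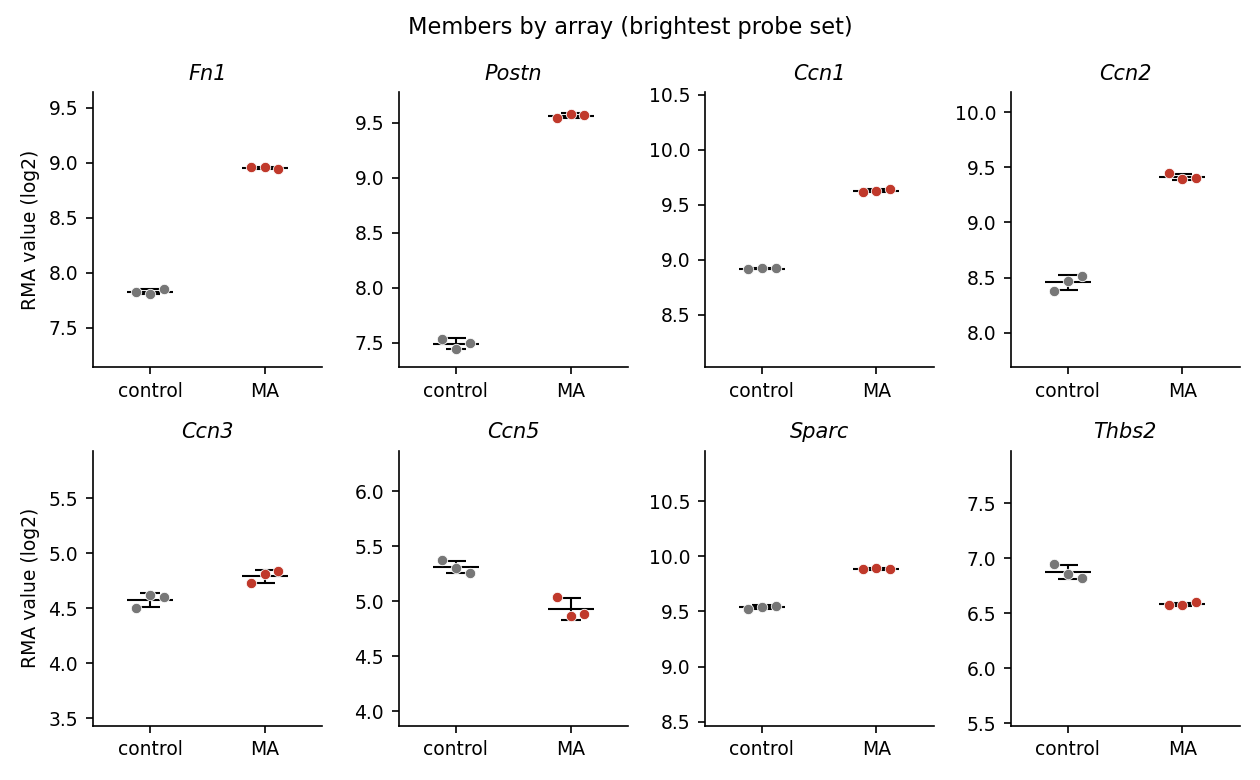
RMA value (log2, vertical axis, with the same span in each panel but a different start) of the brightest probe set of the 8 measured members, with 1 point per array for control 1 to 3 and MA 1 to 3, and the mean ± SD as black bars. The groups stand apart in every panel, with MA above control for Fn1, Postn, Ccn1, Ccn2, Ccn3 and Sparc and below it for Ccn5 and Thbs2.

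Periostin had the largest difference of the members. Postn, which encodes this ligand of αv integrins that promotes collagen crosslinking, had log2 values of 9.54, 9.58 and 9.57 on MA arrays 1 to 3 and of 7.54, 7.44 and 7.50 on control arrays 1 to 3. The lowest MA array lay 2.00 above the highest control array. Group means were 9.56 ± 0.0199 (SD, n = 3) with MA and 7.49 ± 0.048 (SD, n = 3) without, a difference of 2.07 (SE 0.029), or 4.20-fold. Among the 17097 genes Postn ranked 8 by the size of the rise. Leaving out any 1 array kept its difference between 2.04 and 2.09.

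Fibronectin, the adhesive glycoprotein that α5β1 integrin assembles into fibrils, was higher as well. Fn1 had log2 values of 8.96, 8.96 and 8.95 on the MA arrays and of 7.83, 7.81 and 7.86 on the control arrays, with a gap of 1.09 between the groups. The mean was 8.96 ± 0.00854 (SD, n = 3) with MA and 7.83 ± 0.0243 (SD, n = 3) without. Its difference was 1.13 (SE 0.0225), or 2.18-fold, and it ranked 48 of 17097 by the size of the rise. Both genes were measured by 1 probe set, which does not tell their splice forms apart.

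The CCN genes moved in both directions. Ccn2 encodes the connective tissue growth factor, a target of TGF-β and of YAP. It had log2 values of 9.45, 9.40 and 9.40 on the MA arrays and of 8.38, 8.47 and 8.51 on the control arrays, a difference of 0.96 (SE 0.036), or 1.95-fold. The control arrays were spread over more than the MA arrays, with an SD of 0.0685 against 0.0276, and the gap between the groups was 0.88. Ccn1, the former Cyr61, an immediate early gene whose protein binds integrins, had 9.62, 9.63 and 9.64 on the MA arrays and 8.91, 8.92 and 8.93 on the control arrays. The difference was 0.71 (SE 0.0207), or 1.63-fold, at this probe set, whose name marks probes that may also match other transcripts. The other probe set of Ccn1 carries no such mark and differed by 0.64 (SE 0.0282), or 1.56-fold, with no overlap between the groups. The probe sets of Ccn1 thus gave the same direction and nearly the same size.

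Ccn3 and Ccn5 were dimmer on their probe sets and differed by less. Ccn3, the former Nov, had log2 values of 4.73, 4.81 and 4.84 on the MA arrays and of 4.50, 4.62 and 4.61 on the control arrays, a difference of 0.22 (SE 0.0411), or 1.16-fold. The gap between the groups was 0.11, and the brightest probe set again has a name that marks probes with possible matches elsewhere. The other probe set of Ccn3 differed by 0.18 (SE 0.0311) but lay under the background on all 6 arrays. Background is taken here as 3.95, the highest value of the array's controls for nonspecific binding other than the one built of G and C only, which stood at 7.11 to 7.33. Beside both differences of Ccn3 stand those of the hybridization controls, transcripts added to every sample, whose 18 probe sets were all higher in the MA group by a median of 0.17, within a range of 0.04 to 0.35. Their part in the difference of Ccn3 was not tested. Ccn5, the former Wisp2, encodes the CCN protein that lacks the C-terminal cystine knot domain of the others. It was the CCN gene that was lower, with log2 values of 5.04, 4.86 and 4.88 on the MA arrays and of 5.37, 5.30 and 5.26 on the control arrays. The difference was -0.38 (SE 0.05), 1.30-fold lower. MA array 1 stood apart from the other MA arrays and nearest to the control arrays, and the gap between the groups was 0.22. Without it, or without any other single array, the difference of Ccn5 lay between -0.44 and -0.35.

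Sparc, which encodes a collagen-binding protein that aids fibril assembly, gave close values on both of its probe sets. At the brightest it had log2 values of 9.88, 9.89 and 9.88 on the MA arrays and of 9.52, 9.55 and 9.55 on the control arrays. The difference was 0.35 (SE 0.0211), or 1.27-fold, and that of the other probe set was 0.38 (SE 0.0211), or 1.30-fold. On both probe sets the groups stood apart, and each SD was under 0.02. The first difference lay within the range of the hybridization controls and the second just above it, and their part in the difference of Sparc was not tested.

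Thrombospondin 2, an inhibitor of angiogenesis that also controls collagen fibril shape, was lower at 1 of its probe sets only. At the brightest, Thbs2 had log2 values of 6.57, 6.57 and 6.60 on the MA arrays and of 6.94, 6.86 and 6.82 on the control arrays, a difference of -0.29 (SE 0.0325), 1.23-fold lower. The other probe set ran from 5.95 to 6.05 on the MA arrays and from 5.99 to 6.05 on the control arrays. There the groups overlapped, and the difference was -0.03 (SE 0.033), which did not pass the test. With the probe sets averaged, the difference of Thbs2 was -0.16, which is under 1.2-fold.

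**Figure D2:**
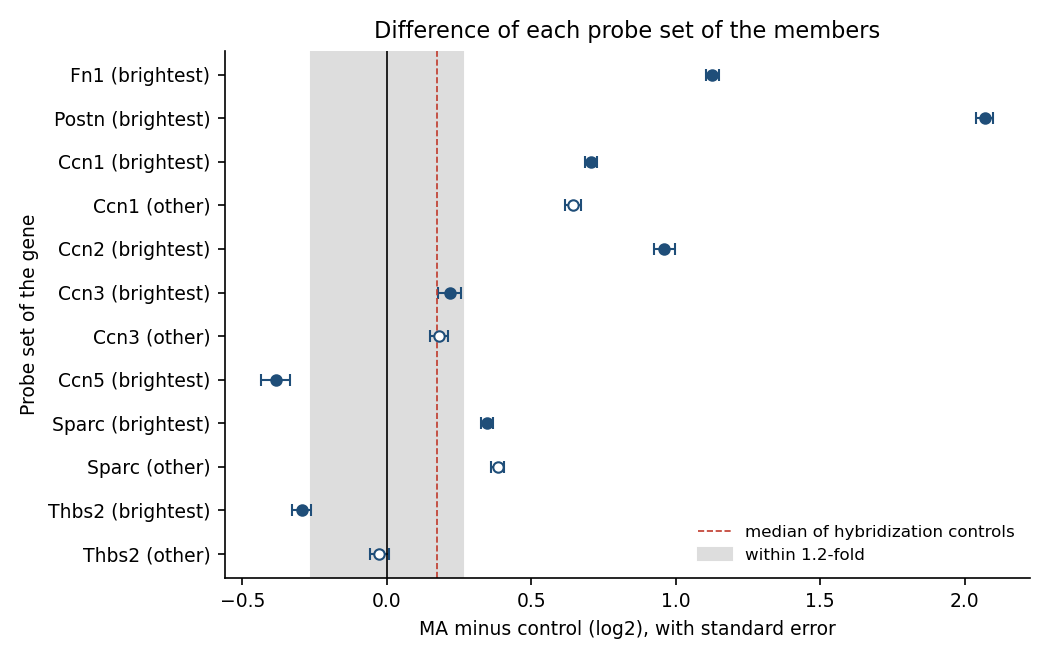
MA mean minus control mean (log2, horizontal axis) with its standard error for each of the 12 probe sets of the members, filled for the brightest of each gene and open for the others. Postn stood at 2.07 and Fn1 at 1.13, while both probe sets of Ccn3 and the dimmer one of Thbs2 lay within 1.2-fold (grey). The dashed line marks the median of the hybridization controls, 0.17.

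The spread within groups was small beside most of these differences. The SDs of the 8 members ran from 0.00587 for Sparc in the MA group to 0.0983 for Ccn5 in the MA group. In 6 of the 8 members the control arrays had the larger SD. The median SD of the members was 0.0177 over the MA arrays and 0.052 over the control arrays, while that of all genes was 0.029 and 0.0314.

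Other matricellular genes were described next to see whether the proteins related to the members moved too. Counts here and in the lists below stand beside 24.7% of all 17097 genes called higher and 23% called lower. A count near those shares says nothing particular about its list. Rises from 0.04 to 0.35 lay within the range of the hybridization controls, whose part in them was not tested. Of 27 listed, 25 were measured, of which 11 rose and 6 fell while 8 missed the threshold, and the list's median difference was 0.03. On all arrays 6 of the 25 lay under the background, among them Ccn6 and Spock3, which count as risen. Later lists also count such genes, with Itga5, Loxl2, Mmp11 and Lep called higher and Mmp13, Tie1 and S100b called lower. Thbs4, a thrombospondin of tendon and muscle, averaged 9.54 ± 0.00934 (SD, n = 3) with MA against 7.91 ± 0.0302 (SD, n = 3) in the controls on the log2 scale, a rise of 1.64 (adjusted p = 1.92e-09, limma). Mgp, the matrix Gla protein that inhibits calcification, rose by 1.18, and Tnc, the matricellular protein tenascin C, rose by 1.02 at its brightest probe set, with 0.06 at the other. Comp, the thrombospondin of cartilage and tendon, rose by 0.54. The remaining CCN genes were higher by less, Ccn4 by 0.29, with 0.43 at its other probe set, and Ccn6 by 0.09, the latter under the background. Tgfbi, the closest relative of periostin, fell by 0.08. Efemp1, a fibulin, had the largest fall at -0.76.

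Collagens and their partners were mostly higher. Of 26 measured genes of fibrillar collagens and of proteins that bind or crosslink them, 20 rose and 1 fell while 5 missed the threshold, with a median of 0.23, which also lay within the range of the hybridization controls. The fibrillar collagen Col3a1, whose fibrils fibronectin and periostin bind, averaged 11.14 ± 0.00396 (SD, n = 3) with MA and 10.57 ± 0.0232 (SD, n = 3) in the controls, a rise of 0.57, with 1.34 at its other probe set. Mfap5, a protein of microfibrils, rose by 1.22. Ltbp1, which stores latent TGF-β in the matrix, fell by 0.57 at its brightest probe set, with values from -0.57 to -0.07 over 3 probe sets.

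Receptors of these ligands were called lower more often than higher at their brightest probe sets. Of 22 measured receptors of these proteins, 5 rose and 11 fell while 6 missed the threshold, with a median of -0.07. Of all genes, 24.7% were called higher and 23% lower. Itgb1, the β1 integrin subunit of fibronectin receptors, averaged 9.59 with MA and 9.54 in the controls on the log2 scale (adjusted p = 0.0721, limma). Over its 5 probe sets the difference of Itgb1 ranged from 0.03 to 0.19. The αv and β5 subunits that bind periostin and CCN proteins fell, Itgav by 0.16 and Itgb5 by 0.21. Over its 5 probe sets, however, Itgav ranged from -0.16 to 0.08. Other β subunits went both ways. Itgb3 rose by 0.13, with -0.03 at its other probe set, and Itgb6 rose by 0.27, while Itgb2 fell by 0.69. Sdc4, the heparan sulfate proteoglycan that joins integrins at fibronectin, fell by 0.48, with -0.31 at its other probe set, and Lrp1, a scavenger receptor that takes up CCN2 and thrombospondin, by 0.57. The largest fall was that of Stab1, the receptor by which macrophages take up SPARC, at -0.81 (adjusted p = 1.48e-05, limma). Cd36, a receptor of thrombospondins, fell by 0.13, with values from -0.23 to -0.12 over 3 probe sets, and Lrp6, a Wnt coreceptor that CCN2 binds, rose by 0.43. The number of receptors that rose was 3 without MA array 2 and 8 when the probe sets of a gene were averaged.

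Inside the cell, genes of focal adhesions were called higher for 11 of 23 and lower for 8, whereas 4 did not pass, and the median was 0.07. Flnc, the filamin of muscle, rose by 0.50, Tns3, a tensin, by 0.84, with 0.11 at its other probe set, and Vcl, vinculin, by 0.34, while Rock1, a kinase of contractility, fell by 0.52, with values from -0.52 to -0.17 over 4 probe sets. The 8 that fell were 5 without MA array 2 and 5 without control array 2.

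Regulators known to control Ccn1 and Ccn2 went both ways, beside 24.7% of all genes called higher and 23% called lower. Of 28 measured genes of YAP, TAZ and TEAD with their common targets other than the CCN genes, 10 rose and 7 fell while 11 missed the threshold, with a median of 0.02. Yap1 averaged 8.39 with MA and 8.44 without (adjusted p = 0.126, limma), and Ankrd1, a common target, rose by 0.08, with 0.21 at its other probe set. Ccdc80 rose by 0.39 at its brightest probe set, with -0.01 at its other, and Amotl1, a binding partner of YAP, rose by 0.18, with up to 0.50 over its 3 probe sets. The phosphatase Ptpn14 fell by 0.56, with values from -0.56 to -0.01 over 3 probe sets. Of 17 genes of SRF, MRTF and their cytoskeletal targets, 6 rose, 6 fell and 5 did not pass, with a median of 0.005. Egr1, an immediate early gene, fell by 0.43, and Fhl1, a LIM protein of muscle, rose by 0.21.

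TGF-β genes were called lower more often than higher at their brightest probe sets, with 3 lower and 1 higher by the thresholds of the methods. Of 26 measured ligands, receptors, transducers and targets, 8 rose and 13 fell while 5 missed the threshold, with a median of -0.07, and the 13 were 8 when the probe sets of a gene were averaged. Among the ligands, Tgfb3 rose by 0.25 and Tgfb2 fell by 0.09, while Tgfb1 averaged 5.04 ± 0.0846 (SD, n = 3) with MA and 4.97 ± 0.0881 (SD, n = 3) in the controls, where the arrays overlapped (adjusted p = 0.311, limma). The receptor Tgfbr1 fell by 0.34, with values from -0.34 to -0.14 over 3 probe sets, Skil, an inhibitor of SMADs, fell by 0.40, and Acvr1, a BMP receptor, rose by 0.51, with 0.04 at the lowest of its 3 probe sets. Proteinases and inhibitors that act on the members were divided, since 7 of 23 rose and 8 fell while 8 missed the threshold, with a median of -0.04. Of all genes, 24.7% were called higher and 23% lower. Timp1, an inhibitor of metalloproteinases, rose by 1.93, whereas Timp3, which stays bound to the matrix, fell by 0.57, with values from -0.57 to -0.30 over 4 probe sets. Timp2 fell by 0.15, with its 5 probe sets from -0.18 to 0.18.

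**Figure D3:**
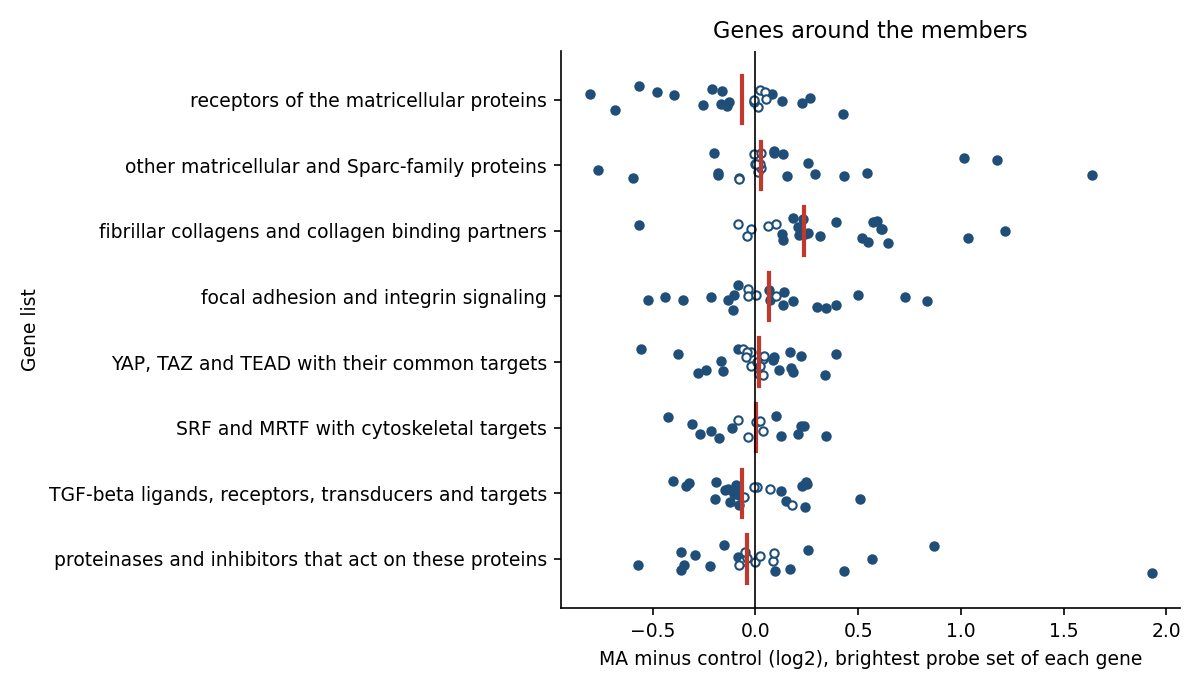
MA mean minus control mean (log2, horizontal axis) of each measured gene in 8 lists around the members (vertical axis), where points are genes, filled points passed the test of limma and red bars mark medians. The median was 0.23 for collagens and their partners and lay between -0.07 and 0.07 for the other 7 lists.

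The cells that make these proteins were followed by their markers. Their counts too stand beside 24.7% of all genes called higher and 23% called lower. Markers of fibro-adipogenic progenitors and fibroblasts, the main source of matrix in muscle, did not move one way, as 5 of 12 rose and 3 fell while 4 missed the threshold, with a median of 0.01. Dcn, decorin, averaged 11.02 with MA and 11.06 without (adjusted p = 0.128, limma), and Pdgfra, which defines these progenitors, had 3.93 and 3.97 and lay close to the background. Their summed linear level was 6096 to 6135 on the MA arrays and 6197 to 6271 on the control arrays, and none of the 12 lay under the background on all arrays. Mfap5 was again the largest rise, and Clec3b, tetranectin, had the largest fall at -0.24. Gsn, gelsolin, fell by 0.19, with values from -0.25 to -0.0040 over 5 probe sets.

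Markers of tendon moved with the members that rose. Of 9 measured, 7 rose and 2 fell, with a median of 0.54. Tnmd, the tendon protein tenomodulin, rose by 1.79, Fmod, fibromodulin, by 0.61 and Comp by 0.54, whereas Cpxm2 fell by 0.14. The summed linear level of the 9 was 946 to 966 on the MA arrays and 549 to 554 on the control arrays, and of the defining markers only the transcription factor Mkx lay under the background on all arrays. Their part in the members' differences was not tested.

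Markers of macrophages moved the other way. Of 18 measured, 15 fell and 1 rose while 2 missed the threshold, with a median of -0.74, and Itgam lay under the background on all arrays. Aif1 fell by 1.97, Adgre1, a receptor that marks macrophages, by 1.14 and Lyz2 by 0.69, whereas Trem2 rose by 0.16, with -0.06 at its other probe set. Without MA array 1, 2 markers were called higher. The summed linear level was 3165 to 3228 on the MA arrays and 5286 to 5361 on the control arrays, and its part in the differences of Stab1 and of the members was not tested. Of 12 endothelial markers 10 fell, 0 rose and 2 missed the threshold, with a median of -0.17. The largest fall was that of Vwf, the von Willebrand factor, at -0.39, and Egfl7, a secreted protein of endothelium, fell by 0.24. Of 7 markers of smooth muscle and pericytes 4 fell, 1 rose and 2 did not pass, with Rgs5, a pericyte regulator of G protein signaling, at -0.59 and down to -1.005 over 4 probe sets, and Kcnj8, a potassium channel subunit of pericytes, at 0.17. Of 12 markers of muscle fibers, 6 rose, 1 fell and 5 did not pass, with a median of 0.08, and the fall, that of Mb (myoglobin) at -0.06, was lost without control array 2 or 3 or any 1 MA array. Tnni2, the fast troponin I, had the largest rise at 0.19, and Acta1 had the smallest at 0.13. All 6 rises lay within the range of the hybridization controls, 0.04 to 0.35, whose part in them was not tested. With the thresholds of the methods, 0 of the 12 markers were called higher and 0 lower. At other probe sets the rise was larger, up to 0.66 for Tnni2 and 0.83 for Ckm, the muscle creatine kinase, against 0.17 at its brightest. Acta1, the skeletal actin, had mean log2 values of 12.62 with MA and 12.49 without, which shows skeletal muscle but not which muscle.

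**Figure D4:**
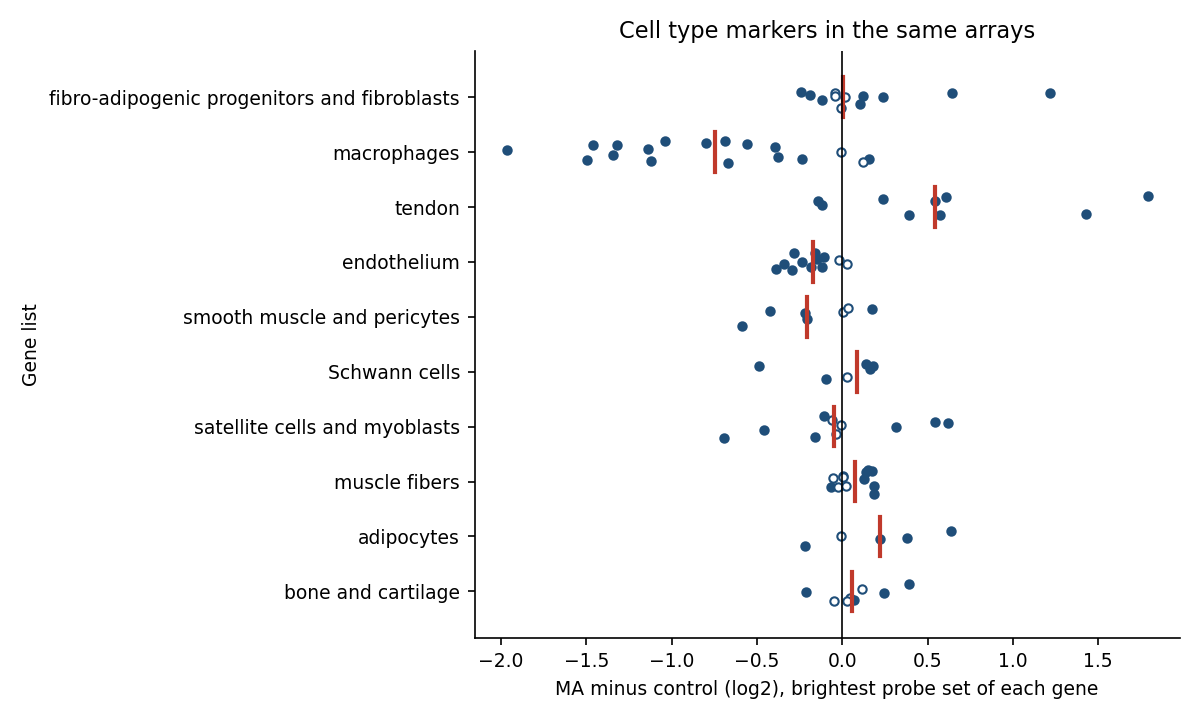
MA mean minus control mean (log2, horizontal axis) of each measured marker of 10 cell types (vertical axis), where points are genes, filled points passed the test of limma and red bars mark medians. The median was -0.74 for macrophages, 0.54 for tendon and 0.01 for fibro-adipogenic progenitors and fibroblasts.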

How the data were processed

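The deposited table holds log2 values of 45141 probe sets on 6 arrays, which the authors made with RMA in Affymetrix Expression Console, whose version is not given in the sources used here. Probe sets carry the names of the mouse array given in the methods, although the design text gives a human one. Background correction and quantile normalization by RMA can narrow differences of dim genes. Gene symbols came from the platform annotation, in which 28898 of the 45037 probe sets that are not array controls named 1 gene, 551 several and 15588 none. Over probe sets, r was 0.9992 to 0.9997 within groups and 0.9934 to 0.9937 between them, and the number of arrays limits the precision.

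Values were fitted with limma 3.58.1 in R 4.3.3 (lmFit, eBayes, no covariate), with Benjamini-Hochberg adjustment over all 45037 probe sets. The fit was tested on simulated data, in which it called 8% of probe sets changed by 1.1-fold, 78% at 1.2-fold, 98% at 1.5-fold and 100% at 2-fold. Only 50 of the 45037 probe sets were changed at each fold, while 19331 were called on the arrays. The adjustment was therefore stricter in the simulation, and these shares are not the sensitivity of the calls given here. The members and the 18 lists were chosen with earlier results of these data known, and no list was tested as a set. Named genes were all members and, of each list, the called genes with the largest rise, the largest fall and the highest mean; other list genes named, such as the integrin, YAP and TGF-β genes, were chosen after their values were seen. The alternatives were an eBayes trend, robust moderation, quantile normalization again, median centring, leaving out dim probe sets, array weights, the replicate number as a block, the one-way test of the methods, averaged probe sets and leaving out each array.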

Additional observations from a re-analysis of the deposited data

How the results depend on the processing

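The 8 members kept their direction and stayed on the same side of the threshold under each alternative that could be run, except that Ccn3, at 1.16-fold, missed the fold asked for by the methods. The difference lay between 2.04 and 2.09 for Postn, 1.12 and 1.14 for Fn1, 0.92 and 0.99 for Ccn2, 0.68 and 0.71 for Ccn1, 0.34 and 0.37 for Sparc, 0.18 and 0.25 for Ccn3, -0.44 and -0.35 for Ccn5 and -0.32 and -0.16 for Thbs2. The dimmer probe set of Thbs2, which did not pass the test, stood at 0.0085 after quantile normalization again. No probe set names a member beside other genes, so that this alternative could not be run.

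Over all probe sets 19331 were called, between 15626 and 19388 without any 1 array, and the one-way test at the thresholds of the methods called 4633. Of the genes in the 18 lists 203 were called, and 89 with those thresholds, which add a fold. Counts of single lists that moved by over 1.5 times were collagens and partners lower (1 to 2 with an eBayes trend, the one-way test and the replicate block), focal adhesion lower (8 to 5), receptors higher (5 to 3 or 8) and TGF-β lower (13 to 8). For markers, they were macrophages higher (1 to 0 or 2), muscle fibers lower (1 to between 0 and 3), Schwann cells lower (2 to 1), tendon lower (2 to 1) and bone and cartilage lower (1 to 0).

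With the replicate number as a block, 19844 probe sets were called, with the same calls of the members. Deviations of same-numbered arrays correlated with r = 0.19, 0.04 and 0.14, against -0.18 to 0.07 for arrays of different numbers. MA array 2 correlated best with control array 3, and whether the numbers pair the arrays cannot be told from these values. Probe sets near the background of 3.95, among them Ccn6, Pdgfra and the dimmer one of Ccn3, can hide a change.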

Other observations

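Genes whose 6 array values, each taken minus the control mean, lay closest to those of Fn1 were Myh7, the slow myosin heavy chain, and Mgst3, a glutathione transferase of membranes, with Euclidean distances of 0.0478 and 0.0479 on the log2 scale, followed by Tceal7 (0.0584), Smyd2, a lysine methyltransferase (0.0824), and 4632427E13Rik (0.0846). Closest to Postn were Lmcd1 (0.135), Myl3, a myosin light chain of slow fibers (0.139), Hfe (0.163), Timp1 (0.271) and Tuba8, a tubulin (0.316). As the groups are the main difference between the arrays, the measure mostly finds genes with a difference of the same size, which ran from 1.11 to 1.16 for the genes near Fn1 and from 1.93 to 2.21 for those near Postn.

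Markers of further cell types went both ways, beside 24.7% of all genes called higher and 23% called lower. Of 10 markers of satellite cells and myoblasts 3 rose and 4 fell while 3 missed the threshold. Ncam1, an adhesion molecule of denervated fibers, rose by 0.62 at the brightest of 6 probe sets and had -0.10 at the lowest. Megf10 fell by 0.69. Myog, the myogenic factor myogenin, fell by 0.16. Of 6 markers of Schwann cells 3 rose and 2 fell, with Ngfr, a neurotrophin receptor, higher by 0.18 at its brightest probe set and -0.03 at the lowest of 3, and Mbp, a myelin protein, lower by 0.49 at its brightest probe set and by 0.05 at the other. The 2 that fell were 1 without control array 1 or 2 or any 1 MA array. Adipoq, the adipocyte hormone adiponectin, rose by 0.64, while Fabp4, a fatty acid binding protein, fell by 0.22 at its brightest probe set and by up to 0.50 over its 3, and of 5 markers of adipocytes 3 rose and 1 fell. Of 8 markers of bone and cartilage 3 rose, 1 fell and 4 did not pass, with Chad, chondroadherin, at 0.39 and the transcription factors Sox9 at -0.21, with up to -0.03 over 3 probe sets, and Sp7 at 0.07, and the defining markers Acan, Bglap and Ibsp lay under the background on all arrays.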
